A study of Mus musculus with 20 samples.

Results

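Homozygous and heterozygous deletions of an MT2C_Mm repeat at the Pcgf5 gene were compared in mouse embryos at the 4-cell stage. The comparison takes every RNA library whose title names the homozygous deletion (Homo KO, 3 libraries) or the heterozygous deletion (Hetero KO, 3 libraries) at that stage. These are 6 of the 20 samples of the series, and all 24411 genes listed in their files were considered. The embryos came from superovulated oocytes fertilised in vitro, were cultured in KSOM medium and were collected 48 hours after insemination, with 10 embryos in each library. The 2 wild-type (WT) 4-cell libraries, which carry no deletion, are given beside them for reference and share the estimate of the spread. No small interfering RNA was used in these 8 libraries. The labels give neither the position of the repeat, nor the size of the deletion, nor the mouse strain, nor whether heterozygotes carry it on the maternal or the paternal allele. They also do not say whether the libraries of a genotype came from separate matings, so p-values measure the spread between these pools only.

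Pcgf5 encodes a Polycomb group RING finger protein that defines one of the variant forms of Polycomb repressive complex 1 (PRC1). In that complex it binds the E3 ubiquitin ligases RING1 and RNF2 (RING1B), together with RYBP or YAF2, AUTS2 and casein kinase 2, and the complex places monoubiquitin on histone H2A (the mark H2AK119ub1), a modification tied to gene repression. MT2C_Mm belongs to the ERVL class of long terminal repeats and is related to MT2_Mm, the repeat that flanks the mouse retrovirus MERVL. MERVL repeats are switched on in 2-cell embryos, where many act as promoters of zygotic genes, and are silenced as cleavage goes on. The title of the series names Pcgf5 as a MERVL-driven gene that suppresses zygotic genome activation, so the comparison asks what losing the second copy of the repeat does to Pcgf5 and to the genes of that programme.

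Depth in the 8 libraries ran from 14310634 to 17871206 summed expected counts, and markers of cleavage embryos were present in each. Dppa3, a maternal protein of the early embryo, stood at 9905 to 14182 CPM (counts scaled to the size of the library, with TMM factors) in all 6 deletion libraries, Klf17 at 125 to 303 CPM and Sall4 at 40.7 to 119.04 CPM. Pou5f1 (0.567 to 3.78 CPM) and Nanog (0.336 to 3.08 CPM), by contrast, were close to the limit of counting. Across genes, log2 CPM correlated at 0.928 to 0.939 within Hetero KO, 0.914 to 0.929 within Homo KO and 0.902 to 0.933 between the genotypes, so the range between genotypes overlaps those within them. Before any result, 1 difference among libraries has to be named: Xist, the noncoding RNA of the inactive X chromosome, stood at 19.7, 40.2 and 103 CPM in Hetero KO replicates 1 to 3 and at 40.5, 6.11 and 5.64 CPM in Homo KO. Homo KO replicates 2 and 3 also held the most RNA of the 8 Y-linked genes tested (264 and 202 summed CPM, against 106 in Homo KO replicate 1 and 51.8 to 138 in Hetero KO). In WT replicates 1 and 2, Xist stood at 11.7 and 64.2 CPM and the Y-linked genes summed to 118 and 152 CPM. Results on X- and Y-linked genes are given with these values, and counts are also given for autosomal genes alone.

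Pcgf5 was lower in homozygous than in heterozygous embryos in this comparison, without passing the test across all genes. It stood at 338, 255 and 286 CPM in Hetero KO replicates 1 to 3 and at 193, 214 and 164 CPM in Homo KO. All 3 homozygous libraries lay below all 3 heterozygous ones, and the WT libraries, at 331 and 297 CPM, lay within the range of the heterozygous group. The mean was 293 ± 42.1 CPM (SD, n = 3) in Hetero KO and 190.5 ± 25.0 CPM (SD, n = 3) in Homo KO, so that homozygous embryos kept 65.0% of the heterozygous level. The log2 fold change of Homo KO against Hetero KO was -0.62 (SE 0.168), with an unadjusted p of 0.00337 and an adjusted p of 0.424 in edgeR's quasi-likelihood test with Benjamini-Hochberg adjustment. An exact two-sided permutation test of the 6 values gave p = 0.1, the smallest that the 20 groupings of 3 against 3 allow. By unadjusted p, Pcgf5 ranked 108 among the genes tested.

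**Figure D1:**
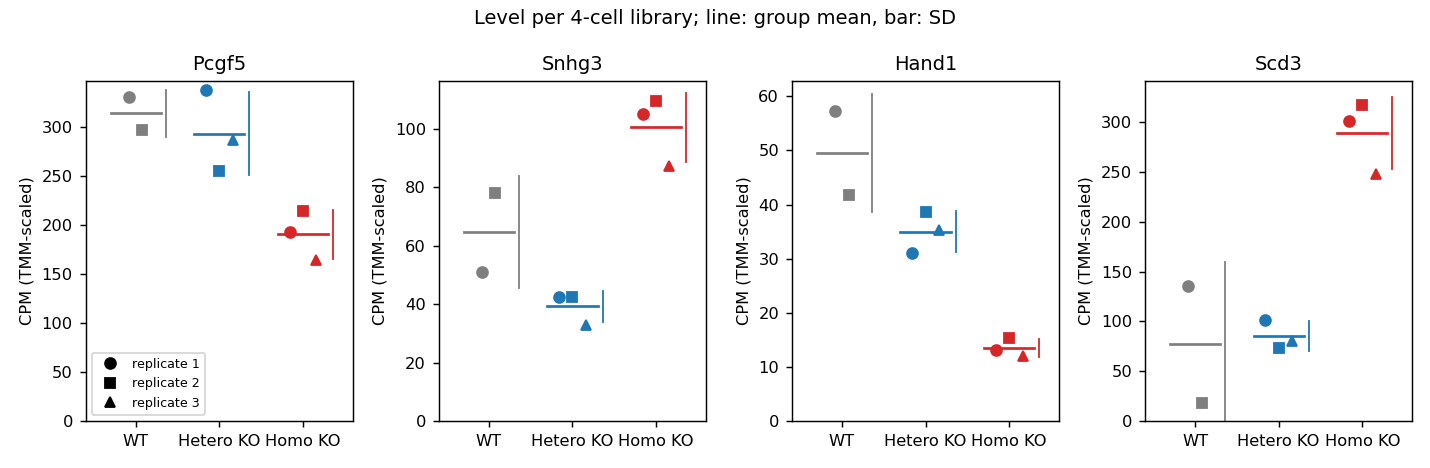
Level of Pcgf5, Snhg3, Hand1 and Scd3 in each 4-cell library, in CPM on a linear axis from 0, with points for libraries (symbol by replicate number), a line for the group mean and a bar for the SD. The 3 Homo KO libraries lie apart from the 3 Hetero KO libraries for each of the 4 genes: below for Pcgf5 and Hand1, above for Snhg3 and Scd3.

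The same 8 libraries give the contrasts with wild type, which share libraries with the main one and are set beside it as values. Pcgf5 had a log2 fold change of -0.72 (SE 0.185) for Homo KO against WT and -0.10 (SE 0.186) for Hetero KO against WT. In the deposited TPM, which scale by transcript length, Pcgf5 stood at 276 ± 47.4 (SD, n = 3) in Hetero KO, 176 ± 20.8 (SD, n = 3) in Homo KO and 296 ± 59.7 (SD, n = 2) in WT. Embryos electroporated with siRNA against Pcgf5, a separate set of libraries of the series, kept much less of the RNA: 53.5 and 89.7 CPM against 309.9 and 806 CPM in siControl at the late 2-cell stage. Leaving out any 1 of the 8 libraries moved the log2 fold change of Homo KO against Hetero KO only between -0.73 and -0.52. In bulk RNA, fewer cells that express a gene and less RNA per cell cannot be told apart, and this holds for every level below.

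Pcgf5 lies on the forward strand of chromosome 19, where its RefSeq span in GRCm38.p6, the assembly behind mm10, is 36348329 to 36460970. RefSeq gives it 3 start windows of 300 bases (250 before to 50 after a start). They are shown because the study concerns a repeat that drives Pcgf5, and they differ in base composition. All are on the + strand, and capitals mark CG dinucleotides.
First Pcgf5 start (chr19:36348079-36348378): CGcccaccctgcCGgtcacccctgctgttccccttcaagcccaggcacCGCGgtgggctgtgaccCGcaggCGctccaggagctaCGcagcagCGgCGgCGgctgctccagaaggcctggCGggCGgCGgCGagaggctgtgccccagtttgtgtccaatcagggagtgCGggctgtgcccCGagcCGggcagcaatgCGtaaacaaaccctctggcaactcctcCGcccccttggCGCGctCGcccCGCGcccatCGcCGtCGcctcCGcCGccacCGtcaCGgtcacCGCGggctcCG
Second Pcgf5 start (chr19:36378817-36379116): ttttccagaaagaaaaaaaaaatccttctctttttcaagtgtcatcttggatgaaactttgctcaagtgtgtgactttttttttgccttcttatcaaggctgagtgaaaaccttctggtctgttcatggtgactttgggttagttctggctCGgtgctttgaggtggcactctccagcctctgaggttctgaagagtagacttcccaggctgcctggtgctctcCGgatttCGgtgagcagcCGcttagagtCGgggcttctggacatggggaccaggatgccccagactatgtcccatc
Most downstream Pcgf5 start (chr19:36409498-36409797): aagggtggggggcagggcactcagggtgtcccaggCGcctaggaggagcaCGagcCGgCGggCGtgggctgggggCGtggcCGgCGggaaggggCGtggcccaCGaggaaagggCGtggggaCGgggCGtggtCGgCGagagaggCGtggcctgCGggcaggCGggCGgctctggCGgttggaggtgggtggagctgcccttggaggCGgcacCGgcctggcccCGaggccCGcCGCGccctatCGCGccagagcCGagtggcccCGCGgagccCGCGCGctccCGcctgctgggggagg
The first and the last window are rich in CG (34 and 35 dinucleotides, GC content of 73% and 78.67%), while the second holds 5 with a GC content of 48.33%. Over the 32851 RefSeq start windows of this length the median is 7 CG dinucleotides and a GC content of 52.67%. More CG than in the first window is therefore rare (92.27% of windows hold fewer), and 38.04% of windows hold fewer than the second. The deposited counts use 1 Pcgf5 transcript of 1509 bases, its length being the same in every library, so starts could not be told apart from these files. It is also not given whether the deletion removes bases of the counted transcript.

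The nearest tested genes beside Pcgf5 on chromosome 19 overlapped between the genotypes. Rpp30, a subunit of the RNase P enzyme that trims transfer RNAs, is the tested neighbour on one side, and it stood at 316, 553 and 397 CPM in Hetero KO and 395, 545 and 359 CPM in Homo KO, which overlap throughout (log2 fold change 0.04, SE 0.235). On the other side Hectd2, a ubiquitin ligase gene, stood at 8.85, 3.35 and 6.13 CPM against 6.12, 2.27 and 14.4 CPM, again with overlap (0.31, SE 0.621). Of the 23 genes tested whose start lies within 2 Mb of that of Pcgf5, 8 were higher and 15 lower in Homo KO, with a median log2 fold change of -0.14. Against WT, from shared libraries, their median was 0.07 for Homo KO and 0.31 for Hetero KO. Among them 1 had an unadjusted p under 0.05 in edgeR: Kif11, the mitotic kinesin that separates spindle poles, with 452, 452 and 594 CPM in Hetero KO and 428, 337 and 363 CPM in Homo KO (-0.41, SE 0.167, unadjusted p 0.0314). Lower genes at that p were 4.35% of the 23 and higher genes 0%, near or below the 3.12% and 5.1% over all genes tested. In WT, Kif11 stood at 351 and 394 CPM, like the homozygous group. Its log2 fold change against WT was 0.01 for Homo KO and 0.42 for Hetero KO.

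Subunits that work with PCGF5 went in both directions. Rnf2, a catalytic subunit of PRC1, stood at 291, 331 and 259 CPM in Hetero KO and at 345, 349 and 320.2 CPM in Homo KO (log2 fold change 0.20, SE 0.180), and its alternative Ring1 was near the counting limit in both (0.625 to 1.32 CPM). Auts2, an activating partner of PCGF5 and PCGF3, stood at 7.64, 8.07 and 5.996 CPM in Hetero KO and 10.2, 11.8 and 15.96 CPM in Homo KO (0.81, SE 0.335). The groups do not overlap for Auts2 (unadjusted p 0.0345 in edgeR), nor for the casein kinase subunit Csnk2b, at 291, 318 and 270.1 CPM against 374, 376 and 349 CPM (0.32, SE 0.150). The other PCGF paralogues, each of which builds its own form of PRC1, lay close to the heterozygous level: log2 fold changes were -0.30 for Pcgf1 (SE 0.170), 0.23 for Bmi1 (Pcgf4; SE 0.301), -0.18 for Pcgf3 (SE 0.263) and 0.01 for Pcgf6 (SE 0.156). Skp1a, a subunit of the Pcgf1 form and of SCF ubiquitin ligases, stood at 1189.8, 1395 and 1329 CPM in Hetero KO and 1588, 2316 and 1435 CPM in Homo KO (0.45, SE 0.181), with no overlap. On the lower side the groups were apart for Pcgf5, for Pcgf3 by a small margin (17.023, 17.219 and 20.054 CPM against 15.998, 16.819 and 15.064 CPM), for Tfdp1, a partner of E2F factors (-0.38, SE 0.193), and for the X-linked Bcor, a subunit of the Pcgf1 form, at 25.5, 38.4 and 25.8 CPM against 9.48, 25.2 and 18.3 CPM (-0.76, SE 0.362). In WT, Bcor stood at 20.45 and 15.7 CPM, within the Homo KO range.

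Of the 38 genes tested in the list of Pcgf5 and PRC1 subunits, 15 were higher and 23 lower in Homo KO. None of the 38 had an adjusted p under 0.05 in edgeR, and the median was -0.12, beside -0.01 over all genes tested. The unadjusted p was under 0.05 for 2 higher genes (Skp1a, Auts2) and 1 lower gene (Pcgf5). These are 5.26% and 2.63% of the 38, near the 5.1% and 3.12% over all genes. Groups were apart for 3 higher and 4 lower of the 38 genes, beside 8.33% and 6.38% of all genes. PRC2, the complex that methylates H3K27, had 11 genes tested with a median of -0.12. Its lower values sat in accessory and alternative subunits. Lcor, whose locus also yields a PRC2 partner, stood at 7.57, 10.8 and 11.4 CPM in Hetero KO and 4.504, 2.08 and 3.65 CPM in Homo KO. Ezh1, the alternative methyltransferase, stood at 25.7, 24.0 and 18.3 CPM against 17.5, 15.3 and 11.5 CPM, and neither gene's groups overlap (-1.54, SE 0.402, and -0.62, SE 0.280). The 15 enzymes and partners that remove ubiquitin from H2A had a median of -0.25, 5 higher and 10 lower, with no unadjusted p under 0.05 in edgeR.

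Over the whole transcriptome, no gene passed edgeR's test. Of 13766 genes tested, 0 (0%) had an adjusted p under 0.05 in either direction, and the smallest adjusted p, shared by 35 genes, was 0.406. At an unadjusted p under 0.05, 702 genes (5.1%) were higher and 429 (3.12%) lower in Homo KO, together 8.22% of the genes. Leaving out 1 library at a time gave 415 to 816 higher genes, the fewest without Homo KO replicate 2, and 286 to 567 lower genes, the fewest without Hetero KO replicate 3. For 1147 genes (8.33%) all 3 Homo KO libraries lay above all 3 Hetero KO libraries, and for 878 genes (6.38%) all lay below. Among autosomal genes alone, 648 were higher and 381 lower at an unadjusted p under 0.05. In the contrasts that share these libraries, 0 genes passed for Homo KO or for Hetero KO against WT, while 1701 (12.36%) and 655 (4.758%) had an unadjusted p under 0.05.

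The outcome depended on the tool and on the libraries behind the spread. DESeq2's Wald test on the same counts called 101 genes higher (0.695%) and 29 lower (0.199%) of 14542 at an adjusted p under 0.05. All 130 had an unadjusted p under 0.05 in edgeR and the groups did not overlap for 128. Of the 130, 89 reached 10 CPM in the higher group. The X chromosome held 14 of the 130, 9 higher and 5 lower, and the Y chromosome 0. Of the X-linked genes tested in edgeR, 8.25% were higher and 8.08% lower at an unadjusted p under 0.05. Over all genes these shares were 5.1% and 3.12%. In edgeR, the 6 deletion libraries fitted without WT called Scd3 (log2 fold change 1.76, SE 0.186, adjusted p 0.0342), and leaving out WT replicate 1 or WT replicate 2 called 5 genes higher, the same 5 both times: Arhgef26, Obox3, Prex2, Scd3 and Usp17lc. In those fits the lone WT library is assumed to vary like the other groups. Without Homo KO replicate 1, the genes edgeR called included Ptges3 and Cstf2t on the higher side and Bex1 on the lower side. These genes were singled out after their values were seen.

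Scd3, a stearoyl-CoA desaturase that puts the double bond into fatty acids, was the gene called in the most of these fits. It stood at 102, 73.1 and 80.6 CPM in Hetero KO and 301, 317 and 248 CPM in Homo KO, while the WT libraries stood at 136 and 18.4 CPM. That WT pair is far wider than either deletion group. A like gap between the WT libraries held for the other genes called without a WT library. Obox3, a homeobox gene of the oocyte and 2-cell embryo, stood at 42.9, 62.2 and 36.2 CPM in Hetero KO, 153, 218 and 192 CPM in Homo KO, and 116 and 14.7 CPM in WT. Prex2, an exchange factor for Rac, stood at 24.1, 31.5 and 17.8 CPM against 93.6, 146 and 79.4 CPM, with 37.3 and 5.41 CPM in WT. Arhgef26, an exchange factor for small GTPases, stood at 21.1, 11.9 and 10.5 CPM against 79.4, 111 and 67.8 CPM, with 32.6 and 1.01 CPM in WT. For Scd3, Obox3, Prex2 and Arhgef26, every Homo KO library stood above every Hetero KO and WT library.

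The 10 higher and 10 lower genes of the smallest p, among those with groups apart and at least 10 CPM in the higher group, were the ones named here; each missed edgeR's threshold and each was called by DESeq2. On the higher side 3 of the 10 were noncoding RNAs. Snhg3, a host of small nucleolar RNAs, stood at 42.4, 42.3 and 32.9 CPM in Hetero KO and 105, 109.7 and 87.3 CPM in Homo KO (log2 fold change 1.36, SE 0.222; DESeq2 adjusted p 0.000164). Its WT values, 51.2 and 78.2 CPM, lay between the groups. Dancr, another host of a small nucleolar RNA, stood at 25.6, 28.6 and 27.6 CPM against 57.7, 79.7 and 57.1 CPM (1.25, SE 0.250), and WT at 51.1 and 31.0 CPM. Gt(ROSA)26Sor, the broadly expressed noncoding RNA of the Rosa26 locus, stood at 59.6, 107 and 54.7 CPM against 145, 256 and 252 CPM (1.56, SE 0.306), and WT at 88.7 and 60.3 CPM. Snhg20, from the same list of noncoding RNAs, stood at 23.5, 25.1 and 22.9 CPM against 62.7, 81.3 and 58.3 CPM (1.501, SE 0.338; DESeq2 adjusted p 0.00957).

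Not every host RNA followed. Among the 24 nuclear and host long noncoding RNAs tested, 12 were higher and 12 lower in Homo KO, with a median log2 fold change of 0.00. Gas5 (0.05), Malat1 (-0.06), Neat1 (0.08) and Snhg12 (0.06) had log2 fold changes near 0. The higher group held 5 genes at an unadjusted p under 0.05, 4 of which DESeq2 called (Snhg3, Dancr, Snhg20 and Meg3), and the lower group held 1. Over all genes these shares are 5.1% higher, 3.12% lower and 0.695% called higher by DESeq2.

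The other 7 higher genes code for proteins. Slc4a7, a sodium bicarbonate cotransporter, stood at 14.9, 15.3 and 16.9 CPM in Hetero KO and 38.5, 30.0 and 44.1 CPM in Homo KO (log2 fold change 1.26, SE 0.256), with 19.2 and 16.3 CPM in WT. Robo1, a receptor for Slit guidance cues, stood at 4.09, 4.43 and 2.83 CPM against 27.6, 43.0 and 11.7 CPM (2.85, SE 0.568). Dcbld1, a transmembrane protein gene, stood at 51.3, 33.5 and 32.2 CPM against 94.8, 140.0 and 114 CPM (1.58, SE 0.315). All homozygous values of these 3 genes also exceeded both WT libraries. Ndufa4, a subunit of cytochrome c oxidase, stood at 247, 246 and 257 CPM against 540.4, 519 and 359 CPM (0.92, SE 0.182). Dbi, which binds acyl-CoA, stood at 93.7, 77.6 and 67.1 CPM against 147, 164 and 140.3 CPM (0.92, SE 0.192). The remaining pair were Sct, the hormone secretin (2.17, SE 0.411), and Cd7, an immunoglobulin-family membrane protein (1.62, SE 0.336).

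On the lower side, Hand1 had the smallest p. This bHLH transcription factor of the trophoblast and heart stood at 31.1, 38.6 and 35.3 CPM in Hetero KO and 13.1, 15.2 and 11.9 CPM in Homo KO (log2 fold change -1.38, SE 0.244; DESeq2 adjusted p 0.000164). The 2 WT libraries stood at 57.2 and 41.8 CPM, above all 6 deletion libraries, and the log2 fold changes against WT were -1.88 for Homo KO and -0.50 for Hetero KO. Hmox1, heme oxygenase, stood at 11.8, 13.2 and 15.3 CPM against 5.85, 3.78 and 3.14 CPM (-1.66, SE 0.371). Rnf5, a ubiquitin ligase of the endoplasmic reticulum, stood at 18.1, 13.6 and 6.68 CPM against 2.69, 4.03 and 4.04 CPM (-1.83, SE 0.430). Fblim1, a filamin-binding adhesion protein, stood at 7.44, 14.4 and 14.5 CPM against 3.495, 3.84 and 4.42 CPM (-1.63, SE 0.380). WT values of these 3 genes lay above every Homo KO library (8.79 to 15.7 CPM).

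Pdxk, the pyridoxal kinase that makes active vitamin B6, showed the tightest difference, with 539.6, 608 and 694 CPM in Hetero KO and 419.6, 390.4 and 383 CPM in Homo KO (log2 fold change -0.63, SE 0.145). Szrd1 stood at 45.4, 34.0 and 44.0 CPM against 18.2, 22.4 and 19.7 CPM (-1.03, SE 0.232), and Tex12, a protein of the synaptonemal complex, at 75.7, 85.6 and 96.8 CPM against 54.6, 41.6 and 45.9 CPM (-0.86, SE 0.204). The other 3 lower genes are X-linked and are read beside the Xist and Y-linked values above, whose part in them was not tested. Msl3, a subunit of the MSL histone acetyltransferase complex, stood at 91.4, 85.9 and 65.1 CPM against 46.6, 33.1 and 39.7 CPM (-1.02, SE 0.225), but at 36.4 and 46.6 CPM in WT, like the homozygous group. Nxf2, an mRNA export factor, likewise had 625, 856 and 681 CPM against 385, 470.2 and 285 CPM, with 314 and 390.3 CPM in WT (-0.92, SE 0.205). Bex1 stood at 112, 87.4 and 122 CPM against 63.3, 26.3 and 21.5 CPM (-1.53, SE 0.369), with 76.6 and 107 CPM in WT. Its 2 lowest values were those of the 2 libraries lowest in Xist (6.11 and 5.64 CPM). WT replicate 1, at 11.7 CPM of Xist, held 76.6 CPM of Bex1.

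**Figure D2:**
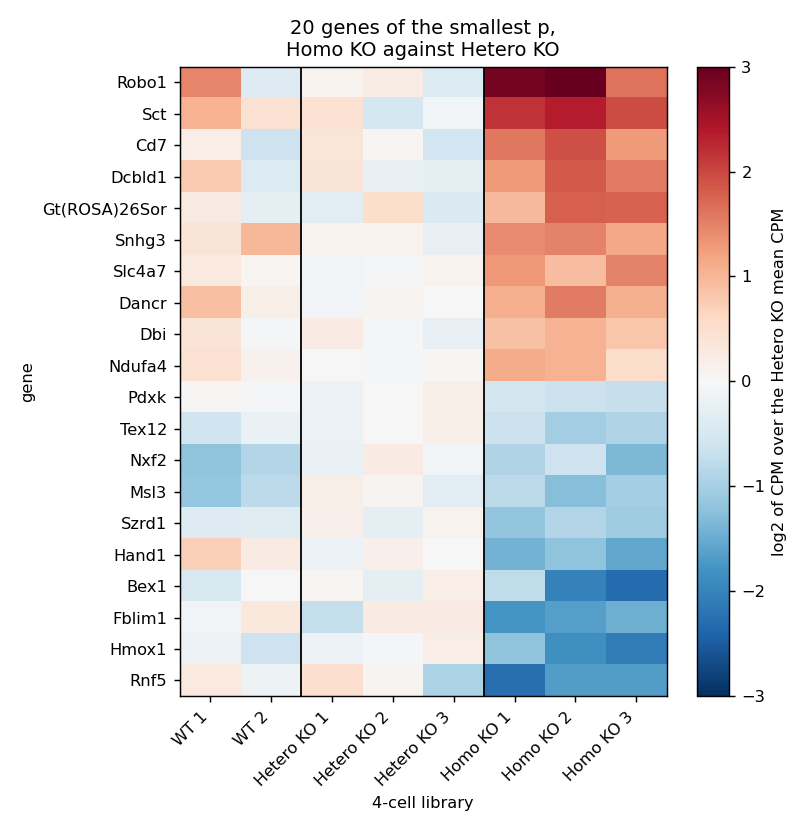
The 20 genes of the smallest p, in rows, in each of the 8 4-cell libraries, in columns; colour gives log2 of the CPM over the Hetero KO mean (red higher, blue lower, scale from -3 to 3). The 3 Homo KO columns are red for the 10 upper genes and blue for the 10 lower genes, as the choice of the genes fixes, and the WT columns match the homozygous colour for Msl3 and Nxf2 but not for Hand1.

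The siRNA libraries, which share no library with this comparison, give further values for the 20 genes. At the late 2-cell stage 9 of the 10 higher genes were higher with siPcgf5 than with siControl (median log2 fold change 0.38, beside 0.005 over all genes) and 6 of the 10 lower genes were lower. In morulae 4 of the 10 higher and 6 of the 10 lower genes were higher with siPcgf5. The lowest adjusted p of the 20 genes in edgeR at the late 2-cell stage was 0.927 (Bex1). For Snhg3 the log2 fold change with siPcgf5 was 0.44 (SE 0.298) in late 2-cell embryos and 0.06 (SE 0.299) in morulae, and for Hand1 0.08 (SE 0.354) and 0.93 (SE 0.350); the adjusted p in edgeR was 0.979 or above in all 4 cases. Stages and means of lowering Pcgf5 differ from the deletion, so these values stand side by side only.

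Further genes called by DESeq2 alone, named after their values were seen, lay on both sides. Rnase4, a secreted ribonuclease, had the smallest adjusted p in DESeq2 (0.000146), with 0.469, 0 and 0.689 CPM in Hetero KO and 9.81, 9.83 and 6.41 CPM in Homo KO. Ang, the angiogenin gene that shares its promoters with Rnase4, stood at 0.670, 0.739 and 0.965 CPM against 7.53, 8.50 and 6.03 CPM; reads of the pair may be split between them. Slc40a1, the iron exporter ferroportin, stood at 2.08, 0.455 and 0.551 CPM against 8.94, 11.02 and 7.76 CPM, and Afp, alpha-fetoprotein, at 19.2, 17.2 and 9.79 CPM against 61.6, 69.7 and 33.4 CPM. A pair of KRAB zinc-finger genes of chromosome 13 went the other way: Rsl1 stood at 2.61, 6.31 and 8.20 CPM against 0.471, 0 and 0.385 CPM, and Zfp85 at 3.08, 1.82 and 1.52 CPM against 0, 0.0630 and 0 CPM. Bard1, the partner of BRCA1, stood at 14.3, 15.3 and 11.3 CPM against 6.12, 1.95 and 5.13 CPM.

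In some genes, chosen after their values were seen, Homo KO replicates 2 and 3 stood far above replicate 1. Ptges3, the HSP90 cochaperone p23, stood at 755 CPM in Homo KO replicate 1, within the Hetero KO values of 665, 807 and 780.1 CPM, and at 2044 and 2169 CPM in the other 2 homozygous libraries, with 896 and 953 CPM in WT. Upf1, the helicase of nonsense-mediated mRNA decay, stood at 8.31, 8.69 and 8.61 CPM in Hetero KO and 10.9, 31.1 and 27.9 CPM in Homo KO, with 18.6 and 13.2 CPM in WT. The splicing and decay factor Khsrp stood at 14.7, 12.1 and 14.5 CPM against 15.4, 62.7 and 49.6 CPM, with 31.3 and 20.9 CPM in WT. Homo KO replicates 2 and 3 were also the 2 libraries lowest in Xist (6.11 and 5.64 CPM). WT replicate 1, at 11.7 CPM of Xist, held 896 CPM of Ptges3, 18.6 CPM of Upf1 and 31.3 CPM of Khsrp. The part of the Xist difference in these values was not tested.

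Genes of zygotic genome activation, which in mouse peaks at the 2-cell stage with MERVL, stood higher in homozygous embryos on average. Of 45 tested genes of this list, 33 were higher and 12 lower, with a median log2 fold change of 0.77 beside -0.01 over all genes. The groups did not overlap for 21 higher genes and 1 lower gene, 11 higher and 1 lower gene had an unadjusted p under 0.05, and none passed edgeR's adjustment; DESeq2 called 1 in each direction (Cml2 and Gm13119). Over all genes tested, groups were apart for 8.33% (higher) and 6.38% (lower), and 5.1% and 3.12% had such a p. Tested markers of blood (5 of 7) and cumulus cells (8 of 11) also stood mostly higher in Homo KO. Their medians were 1.16 and 1.20 at low levels, while the 2 cumulus markers of at least 10 CPM were lower. The part of these markers in the median of the 2-cell genes was not tested. On the autosomes the median was 0.91, and among the 34 members of at least 10 CPM it was 0.93, with 27 higher. The list was assembled with earlier results of these data known, and many members are near-identical copies between which reads may have been split, so its genes are not independent of each other.

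By library, the median over the list of log2 CPM relative to the 8-library mean was 0.06, -0.51 and -0.45 in Hetero KO replicates 1 to 3 and 0.79, 0.79 and 0.83 in Homo KO. The genotypes do not overlap on this measure. The WT libraries, however, stood at 0.67 and -1.41, one near the homozygous group and the other below all 6 deletion libraries. The median log2 fold change was 0.85 for Homo KO against WT and -0.16 for Hetero KO against WT, from shared libraries. Summed over the list, Homo KO held 8322, 7279.6 and 7174 CPM against 5719, 5410.1 and 6017 CPM in Hetero KO and 5922 and 5559.6 CPM in WT. Leaving out 1 library at a time kept the median of the list between 0.72 and 1.19, the highest without Hetero KO replicate 1.

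Within the list, 3 predicted multi-copy genes of chromosome 12 had among the largest fold changes. Gm5662 stood at 287, 104 and 69.7 CPM in Hetero KO and 838, 1089.5 and 1102 CPM in Homo KO (log2 fold change 2.72, SE 1.047), with 748 and 47.2 CPM in WT. Gm8300 stood at 81.9, 13.4 and 42.6 CPM against 297, 275 and 324 CPM, and Gm4027 at 100.2, 13.5 and 31.7 CPM against 246, 279 and 349.8 CPM (2.59, SE 0.901). The standard errors are wide, and the heterozygous libraries lie far from each other. Usp17lc, a multi-copy deubiquitinase, stood at 6.50, 3.47 and 2.27 CPM against 47.3, 37.0 and 25.8 CPM (3.17, SE 1.176). Zscan4d, of the telomere-lengthening Zscan4 cluster, stood at 9.85, 14.8 and 6.27 CPM against 16.5, 32.2 and 33.3 CPM (1.40, SE 0.611), and Zscan4f at 17.3, 15.6 and 4.76 CPM against 24.1, 26.4 and 109 CPM (2.08, SE 0.915).

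Other members went in both directions. Arg2, the mitochondrial arginase, stood at 72.7, 53.7 and 36.1 CPM in Hetero KO and 168, 222 and 137 CPM in Homo KO (log2 fold change 1.70, SE 0.695). Spz1, a bHLH-zip factor, stood at 19.4, 19.9 and 23.5 CPM against 37.7, 36.0 and 33.7 CPM (0.77, SE 0.233), and both its WT values, 19.05 and 17.3 CPM, lay below the heterozygous range. Dppa4, a chromatin regulator of zygotic activation, stood at 807, 892 and 767 CPM against 999, 1051 and 921 CPM (0.27, SE 0.138), whereas its partner Dppa2 stood at 1617, 1967 and 2173 CPM against 1991, 1216 and 1586 CPM (-0.26, SE 0.235), with overlap. Gm13119 was the only lower gene of the list with groups apart, at 25.5, 28.6 and 29.4 CPM against 6.92, 8.57 and 16.7 CPM (-1.38, SE 0.337; DESeq2 adjusted p 0.0202). The Tdpoz genes, a multi-copy family, had no shared direction. Log2 fold changes were 0.28 (SE 0.229) for Tdpoz1, 0.53 (SE 0.296) for Tdpoz5 and 2.27 (SE 1.758) for Tdpoz3, which was near the counting limit. Tdpoz4 stood near 0 at -0.015 (SE 0.459), and Tdpoz2 was lower at -0.80 (SE 0.523).

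The Obox homeobox list, which also holds Duxbl, Crxos and Rhox13, had 10 genes tested, 5 higher and 5 lower, with a median of -0.01 that ranged from -0.44 (without Homo KO replicate 3) to 1.62 (without Hetero KO replicate 1). Obox3, given above, was the member with the smallest p among the higher genes (log2 fold change 1.99, SE 0.650). Duxbl2 and Duxbl3 carry identical values in the files, 93.2, 123 and 105 CPM in Hetero KO and 71.7, 86.2 and 79.4 CPM in Homo KO, so they count as 1 measurement (-0.44, SE 0.185). Oocyte and maternal genes had 27 of 56 higher and a median of -0.10, which ranged from -0.31 (without Hetero KO replicate 3) to 0.38 (without Hetero KO replicate 1). Nlrp14 was among the higher ones, at 236, 234 and 193 CPM against 294, 279 and 433 CPM (0.60, SE 0.209), and Khdc3, of the subcortical maternal complex, among the lower ones at 8.24, 6.65 and 18.7 CPM against 7.60, 3.21 and 3.40 CPM (-1.24, SE 0.501). For maternal mRNA clearance 22 of 34 genes were higher, with a median of 0.05.

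The siControl libraries of the series, which are outside this comparison, gave 2 stage lists so that the deletion embryos could be placed between an earlier and a later stage. With edgeR (adjusted p under 0.05, more than 2 log2 units apart), 3523 of 16980 genes (20.7%) were higher in late 2-cell embryos and 2300 (13.5%) higher in morulae. Of the late 2-cell genes, 2774 were tested at the 4-cell stage: 58.3% were higher in Homo KO than in Hetero KO, and the median was 0.15. At an unadjusted p under 0.05 in edgeR, 237 (8.54%) were higher and 48 (1.73%) lower. Of the morula genes, 2074 were tested: 32.5% were higher and the median was -0.17. At that p, 31 (1.49%) were higher and 95 (4.58%) lower. Over all genes 49.2% were higher, and 5.1% were higher and 3.12% lower at that p.

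These medians rested on single libraries. Relative to the 8-library mean, the late 2-cell list stood at 0.31, 0.17 and -0.46 in Hetero KO against 0.01, 0.20 and 0.52 in Homo KO, so the groups overlap, and the WT libraries stood at 0.05 and -0.62. Without Hetero KO replicate 3 its median fold change was -0.01, and without Homo KO replicate 3 it was -0.02. The morula list stood at -0.06, -0.12 and 0.28 in Hetero KO against 0.05, -0.18 and -0.23 in Homo KO, with overlap as well. Its median ranged from -0.26 to -0.03 over the libraries left out, the value nearest 0 being that without Hetero KO replicate 3. When any 1 of the 8 libraries was left out, the morula list and the list of zygotic activation genes kept their directions. The median of the zygotic activation list ranged from 0.72 to 1.19. The late 2-cell list did not keep its direction.

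**Figure D3:**
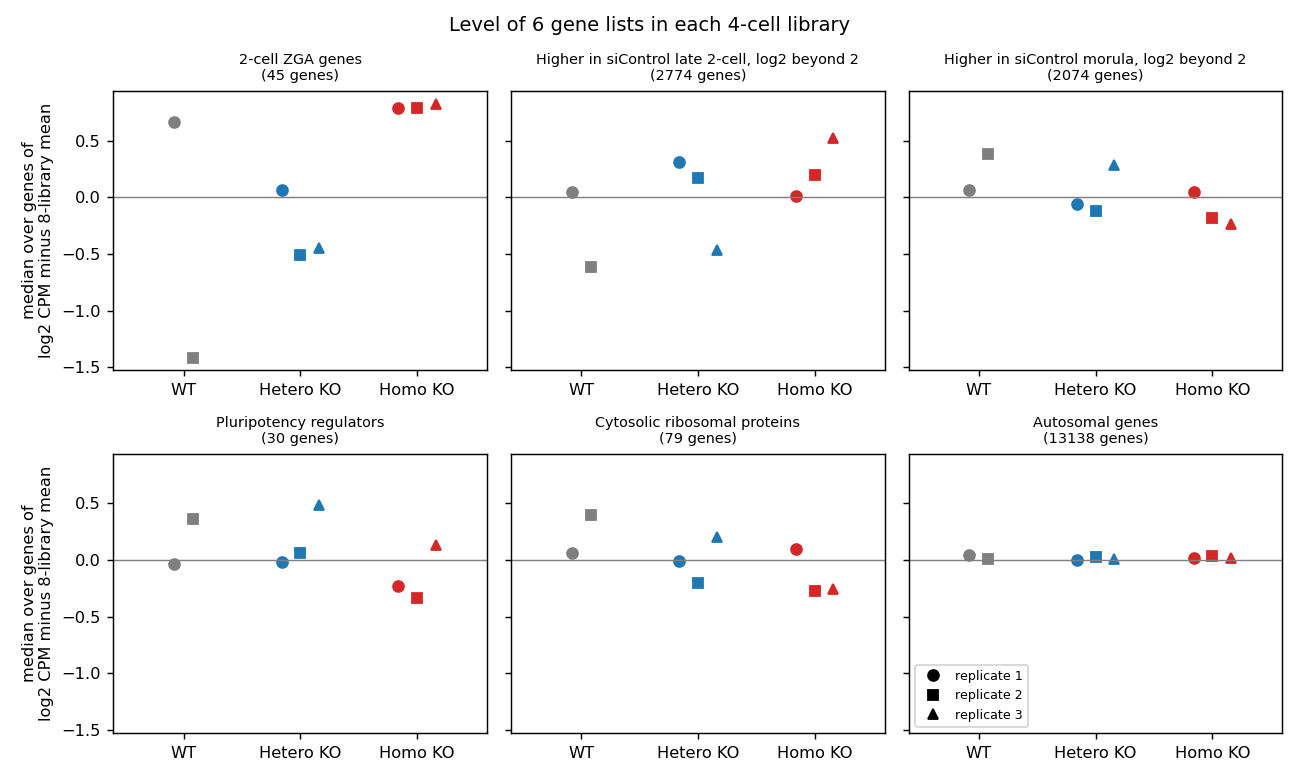
Level of 6 gene lists in each 4-cell library: the median over the list's genes of log2 CPM minus the mean of the 8 libraries, with a point per library and the symbol giving the replicate number. The 3 Homo KO points lie above the 3 Hetero KO points for the 2-cell genes (0.79 to 0.83 against -0.51 to 0.06), overlap with them for the stage lists, pluripotency regulators and ribosomal proteins, and stay near 0 for autosomal genes.

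Pluripotency regulators stood lower on average in homozygous embryos: 7 of 30 tested were higher and 23 lower, with a median log2 fold change of -0.34. Leaving out 1 library at a time gave -0.64 (without Homo KO replicate 3) to -0.22. Their medians by library overlapped, at -0.01, 0.06 and 0.48 in Hetero KO against -0.23, -0.34 and 0.13 in Homo KO. Nr5a2, a nuclear receptor that activates early zygotic genes, was the only one with an unadjusted p under 0.05 in edgeR, at 63.7, 65.7 and 93.4 CPM against 49.0, 42.5 and 60.6 CPM (-0.55, SE 0.247). Esrrb, an orphan nuclear receptor of naive pluripotency, stood at 3.69, 5.001 and 4.96 CPM against 1.68, 3.28 and 1.92 CPM (-0.99, SE 0.474), and Klf2 at 30.6, 26.8 and 54.4 CPM against 17.5, 13.7 and 32.8 CPM (-0.81, SE 0.373). Klf17, Klf5 and Tfap2c, which are abundant at this stage, overlapped between the groups.

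Developmental transcription factors that Polycomb represses were mostly too low to read at this stage: 53 of 131 listed genes passed the filter and 4 reached a mean of 10 CPM. Of the 53, 32 were higher and 21 lower (median 0.53), with 1 higher and 2 lower at an unadjusted p under 0.05. These are 1.89% and 3.77% of the 53, near or below the 5.1% and 3.12% over all genes. The lower ones were Hand1, above, and Gata6, a factor of the primitive endoderm, at 10.3, 11.5 and 12.8 CPM in Hetero KO and 4.504, 7.31 and 1.99 CPM in Homo KO (-1.33, SE 0.508). The higher one was Pax6, a factor of eye and brain, at 5.23, 2.27 and 1.45 CPM against 3.70, 8.50 and 10.6 CPM (1.35, SE 0.588), and its groups overlap. The list's median by library was -0.42, 0.72 and -0.76 in Hetero KO against -1.10, 0.67 and 0.89 in Homo KO, spread as widely within as between genotypes. Of 39 trophectoderm genes 23 were higher (median 0.17), and of 20 primitive endoderm genes 10 (median 0.01).

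Among imprinted genes, 3 noncoding RNAs of the Dlk1-Dio3 domain on chromosome 12 stood out on the higher side. Rian stood at 0.201, 0 and 0.0689 CPM in Hetero KO and 1.68, 3.91 and 9.29 CPM in Homo KO (log2 fold change 5.71, SE 1.162; DESeq2 adjusted p 0.000781). Meg3 stood at 0.469, 0.398 and 0.482 CPM against 1.14, 5.73 and 9.94 CPM (3.62, SE 1.079; DESeq2 adjusted p 0.0438). Mirg, a host of microRNAs, was at 0 in all 3 Hetero KO libraries and at 0, 1.70 and 2.95 CPM in Homo KO, at least 24.3-fold higher if the heterozygous group is set at 3 counts. The 3 RNAs rank the Homo KO libraries in the same order and lie in 1 transcribed domain, so they do not count as separate findings. WT replicate 1 held 3.12 CPM of Rian and 4.14 CPM of Meg3, against 0.713 and 0.178 CPM in WT replicate 2. Dlk1, the paternally expressed gene of the domain, was low in all but Homo KO replicate 3 (4.49 CPM). Elsewhere, Peg3, a paternally expressed zinc-finger gene, stood at 5.29, 4.26 and 2.14 CPM against 6.72, 10.8 and 14.9 CPM (1.47, SE 0.634), and Grb10, an inhibitor of growth factor signalling, at 14.0, 10.5 and 13.5 CPM against 22.1, 25.6 and 14.9 CPM (0.72, SE 0.303). Over the 45 imprinted genes tested the median was 0.04, with 25 higher and 20 lower.

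Ribosomal proteins differed by small amounts, mostly in one direction: 71 of 79 were lower in Homo KO, with a median log2 fold change of -0.14. Their summed level was 49835, 43699 and 59122 CPM in Hetero KO and 53775, 42445 and 42187 CPM in Homo KO, which overlap. Without Hetero KO replicate 3 the median was -0.01, so the shift rested largely on that library, and WT stood at 50716 and 64498 CPM. Rps27 went against the list with 24.8, 78.6 and 37.8 CPM in Hetero KO and 119.1, 77.9 and 109 CPM in Homo KO (1.12, SE 0.378). Ribosome biogenesis genes (38 of 75 higher, median 0.00) and translation initiation factors (24 of 50, median -0.03) were split evenly.

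Replication and cell-cycle genes leaned lower. Of 56 replication genes 42 were lower, with a median of -0.15, and of -0.25 without Homo KO replicate 1. Tk1, thymidine kinase, stood at 53.7, 48.5 and 80.4 CPM in Hetero KO and 32.7, 34.1 and 29.0 CPM in Homo KO (log2 fold change -0.93, SE 0.240; DESeq2 adjusted p 0.0468). Rrm2, the small subunit of ribonucleotide reductase, stood at 411, 493 and 596 CPM against 301, 259 and 371 CPM (-0.69, SE 0.190). Pcna, the replication clamp, went the other way at 232, 263 and 251 CPM against 323, 343 and 288 CPM (0.36, SE 0.145). Of 55 cyclins and mitotic kinases 34 were lower (median -0.11), among them a kinase and a phosphatase that set the timing of mitosis by acting on CDK1: Wee1, at 60.9, 92.7 and 65.2 CPM against 48.6, 33.4 and 24.0 CPM (-1.05, SE 0.304), and Cdc25a, at 19.8, 21.3 and 26.9 CPM against 11.2, 12.7 and 16.9 CPM (-0.74, SE 0.282).

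Transcription, splicing, respiratory and proteasome genes had medians near that of all genes. Groups were apart for 9 higher and 2 lower transcription genes of 73, and for 11 and 6 splicing factors of 66. For respiratory genes these counts were 12 and 4 of 76, and for proteasome genes 2 and 3 of 43. Over all genes tested, groups were apart for 8.33% (higher) and 6.38% (lower). Polr2g, a stalk subunit of RNA polymerase II, stood at 135, 147 and 134 CPM in Hetero KO and 213, 256 and 197 CPM in Homo KO (log2 fold change 0.68, SE 0.174), and Med10 of the Mediator complex at 919, 981 and 809.9 CPM against 1204, 1581 and 1222 CPM (0.56, SE 0.155). Their list had 41 of 73 genes higher and a median of 0.06. Splicing factors had 44 of 66 higher (median 0.08), with Clk4, a kinase of SR proteins, at 107, 125 and 76.5 CPM against 189, 192 and 181 CPM (0.86, SE 0.244). Respiratory chain subunits had 45 of 76 higher (median 0.05) and proteasome subunits 27 of 43 (median 0.06). Glycolysis, pyruvate and citrate cycle genes had 32 of 50 higher (median 0.21, and 0.07 over the 35 of at least 10 CPM), including Ldhb, a lactate dehydrogenase subunit, at 158, 181 and 124 CPM against 194, 243 and 305 CPM (0.68, SE 0.271).

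Lipid genes held members at both ends. Elovl2, an elongase of polyunsaturated fatty acids, stood at 1.27, 1.99 and 3.86 CPM in Hetero KO and 8.94, 15.2 and 19.5 CPM in Homo KO (log2 fold change 2.62, SE 0.651; DESeq2 adjusted p 0.0125). Cpt1a, which carries fatty acids towards oxidation in mitochondria, stood at 15.7, 22.7 and 20.5 CPM against 10.4, 11.9 and 11.2 CPM (-0.82, SE 0.308). Plin3, a coat protein of lipid droplets, stood at 5.90, 7.27 and 9.99 CPM against 4.03, 2.08 and 3.21 CPM (-1.31, SE 0.414). Sqle and Cyp51, enzymes of cholesterol synthesis, stood at 43.6, 50.3 and 55.1 CPM against 60.7, 81.6 and 62.1 CPM (0.46, SE 0.203) and at 13.1, 8.64 and 10.9 CPM against 22.5, 21.9 and 15.4 CPM (0.87, SE 0.342). Of the 48 genes tested 27 were higher, with a median of 0.16.

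Chromatin silencers and stress genes showed no common direction. Among 34 genes of H3K9 methylation and retroelement silencing 16 were higher (median -0.02), and among 18 DNA methylation genes 7 (median -0.07), with Tet1, an eraser of 5-methylcytosine, at 117, 112 and 149 CPM in Hetero KO and 106, 86.9 and 87.6 CPM in Homo KO (-0.43, SE 0.177). Of 33 histone genes and variants 18 were higher (median 0.02), among them the variant H2afz at 2775, 2837 and 2492 CPM against 3302, 4045 and 2911 CPM (0.34, SE 0.153). Of 38 p53 target and stress genes 21 were higher (median 0.09); Cdkn1a, the cell-cycle inhibitor p21, stood at 66.6, 48.8 and 50.2 CPM against 36.6, 43.3 and 37.9 CPM (-0.49, SE 0.214). Heat shock chaperones had a median of -0.04, with Hspb1, a small heat shock protein, at 26.1, 21.8 and 14.0 CPM against 44.6, 60.1 and 40.3 CPM (1.23, SE 0.301; DESeq2 adjusted p 0.0261).

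**Figure D4:**
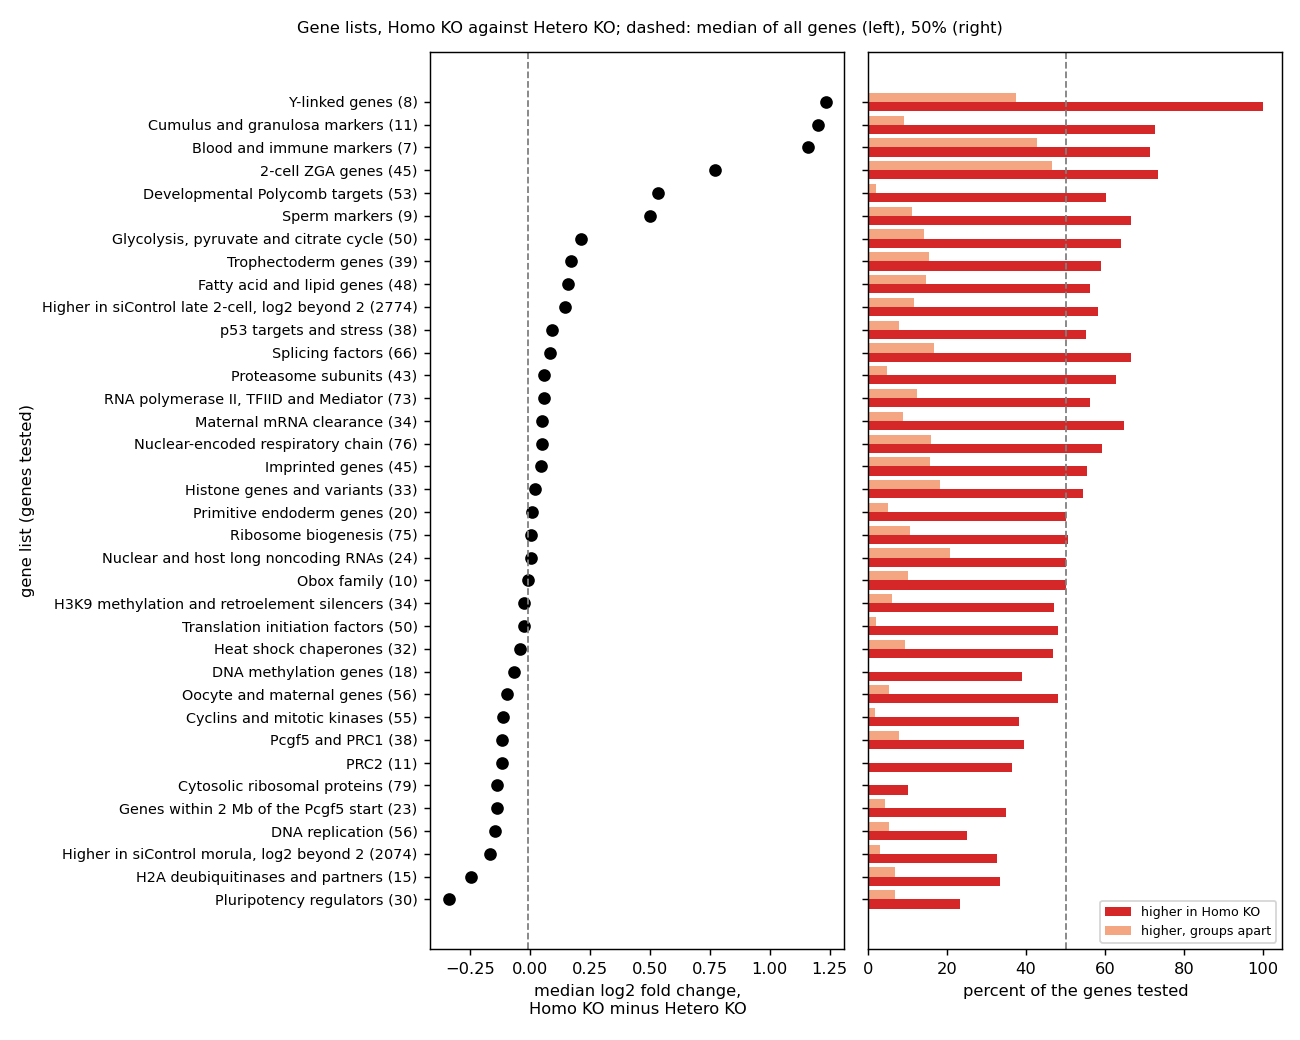
Gene lists ordered by the median log2 fold change of Homo KO against Hetero KO (left, a point per list, dashed line at the median of all genes) and the percent of each list's tested genes that were higher in Homo KO (right, dark bars) or higher with groups that do not overlap (light bars). The 2-cell genes have the highest median of the lists with over 20 genes tested (0.77), pluripotency regulators the lowest (-0.34), and most lists lie near 0.

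Markers of other cell types were low, several defining ones were at 0, and those tested stood mostly higher in Homo KO. Of the tested cumulus markers 8 of 11 were higher (median log2 fold change 1.20), of the blood markers 5 of 7 (median 1.16) and of the sperm markers 6 of 9 (median 0.50). Of the 2 cumulus markers with a mean of at least 10 CPM, however, 0 were higher (median -0.36). The cumulus medians by library overlapped, at -0.26, -1.11 and 0.35 in Hetero KO against -0.03, 1.32 and 0.15 in Homo KO. The part of these markers in the higher values of the 2-cell genes was not tested. Of 28 cumulus and granulosa markers 5 were at 0 in all 6 libraries (Amh, Inha, Inhba, Has2 and Lhcgr), and the list summed to 58.2, 93.5 and 122 CPM in Hetero KO and 87.8, 90.6 and 96.5 CPM in Homo KO, most of it Gja1, a gap junction protein that embryos express too. Tnfaip6, a matrix protein of expanding cumulus, was the member apart, at 1.34, 0.796 and 0.413 CPM against 5.78, 2.33 and 13.4 CPM (log2 fold change 3.06, SE 0.773; DESeq2 adjusted p 0.0176), while its matrix partner Has2 was at 0 in all 6 libraries. Of 20 blood and immune markers 8 were at 0, the leucocyte marker Ptprc and 3 beta-globin genes among them. The blood list nonetheless summed to 54.8, 45.3 and 24.4 CPM in Hetero KO and 72.4, 93.2 and 99.6 CPM in Homo KO, most of it Hba-a2, a near-identical copy of the alpha-globin Hba-a1, at 47.9, 33.3 and 18.95 CPM against 62.3, 76.6 and 84.4 CPM. Lyz2, a lysozyme of myeloid cells, stood at 1.07, 0.568 and 0.413 CPM against 3.76, 4.98 and 3.53 CPM (2.57, SE 0.995, unadjusted p 0.0253 in edgeR), and Cd79a, of the B-cell receptor, at 0.134, 0.398 and 0.138 CPM against 0.605, 1.32 and 1.99 CPM; both are apart between the groups. Of 25 sperm markers 6 were at 0, and the sums overlapped (40.1 to 68.1 CPM against 50.8 to 77.8 CPM).

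X-linked genes leaned lower and Y-linked genes higher in Homo KO. Of 265 X-linked genes with a mean of at least 10 CPM, 198 (74.72%) were lower, with a median log2 fold change of -0.29; of 6148 autosomal genes at that level 50.54% were lower, with a median of 0.00. By library, the X-linked median relative to the 8-library mean was 0.20, 0.11 and 0.29 in Hetero KO against 0.26, -0.38 and -0.15 in Homo KO, so Homo KO replicate 1 sat with the heterozygous libraries. All 8 tested Y-linked genes were higher (median 1.23), and their groups did not overlap for 3, beside 8.33% of all genes. The unadjusted p in edgeR was under 0.05 for 4 of the 8 (50%), beside 5.1% of all genes. Ddx3y, a helicase, stood at 22.0, 14.1 and 21.0 CPM against 28.6, 38.3 and 57.9 CPM, and Zfy2, a zinc-finger factor, at 2.48, 4.21 and 1.93 CPM against 4.30, 33.6 and 6.15 CPM. Tsix, the antisense partner of Xist, followed Xist, at 56.2, 59.9 and 111 CPM against 50.1, 7.81 and 9.81 CPM; the counting is not stated to use strand, so reads of the pair cannot be told apart. The number of male and female embryos in each pool of 10 is not given.

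**Figure D5:**
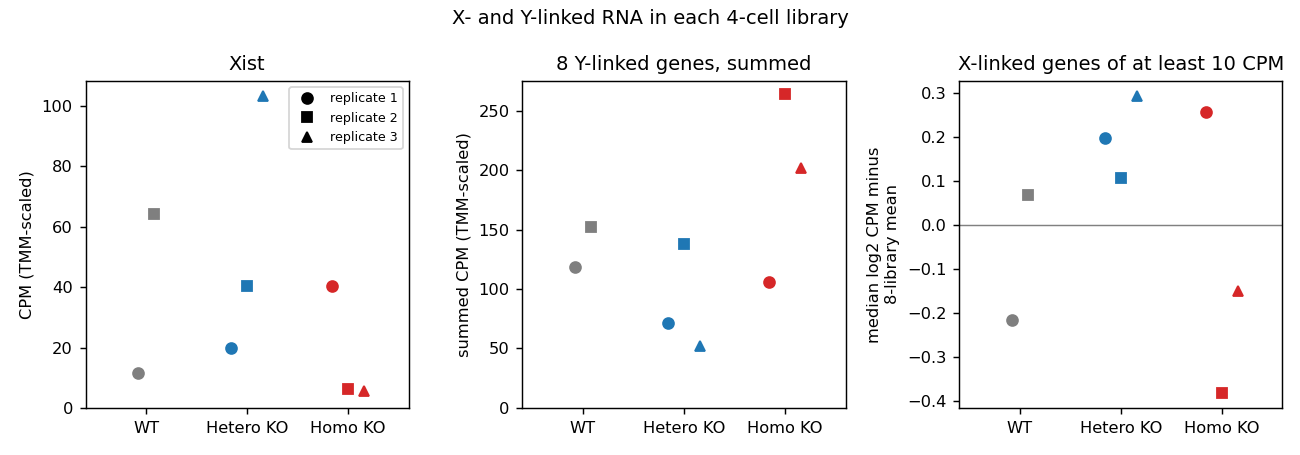
Xist (left, CPM), the sum of the 8 tested Y-linked genes (middle, CPM) and the median of X-linked genes of at least 10 CPM relative to the 8-library mean (right, log2) in each 4-cell library, with a point per library and the symbol giving the replicate number. Homo KO replicates 2 and 3 are lowest in Xist and highest in Y-linked RNA, while Homo KO replicate 1 lies among the Hetero KO libraries in all 3 panels.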

How the data were processed

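RNA was measured in pools of 10 embryos with SMART-Seq v4 PLUS libraries, per the labels' protocols. STAR 2.7.10, RSEM 1.3.3 and the mm10 build are named in the submitters' processing notes. The authors deposited RSEM's expected counts and TPM per gene and library, per the file headers. Expected counts were rounded to whole numbers here, and the deposited TPM were used for the level of Pcgf5 alone. The common biological coefficient of variation was 0.517.

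Genes were filtered with filterByExpr (minimum count 10), TMM-normalised and compared by edgeR 4.0.16 (R 4.3.3; quasi-likelihood, two-sided, Benjamini-Hochberg over 13766 genes, threshold 0.05) in 1 fit of all 8 4-cell libraries. The scripts were tested on simulated data. Alternatives were DESeq2 1.42.0, limma 3.58.1 on log2 TPM with a pseudocount of 1, no filter, DESeq2's size factors, a replicate block, the 6 deletion libraries alone, and each library left out. Of 24411 genes, 24303 matched the RefSeq table.

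Named are Pcgf5, its neighbours, the 10 genes per direction of the smallest p (non-overlapping, at least 10 CPM, no predicted genes), and the list members of the smallest p; others are marked as chosen after their values were seen. The 33 lists (1471 genes, 1432 in the files) and the comparison itself were chosen with earlier results of these data known. Near-identical gene copies, overlapping genes and antisense pairs may share reads, since strand use in counting is not given in the sources used here. The 4 H2AK119ub1 libraries were not analysed here. Some single-gene results are not reported here.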

Additional observations from a re-analysis of the deposited data

How the results depend on the processing

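The count of genes called depended on the tool and on single libraries. DESeq2 called 101 genes higher and 29 lower, the fit of the 6 deletion libraries called 1 higher, and leaving out 1 library at a time gave 0 to 5 higher and 0 to 1 lower genes, against 0 in each direction with edgeR on all 8 libraries. limma, no filter and DESeq2's size factors in edgeR also gave 0. The replicate numbers did not pair the libraries: deviations of same-numbered Hetero KO and Homo KO libraries correlated at -0.05, 0.07 and -0.13. With a replicate block, 0 genes passed, 614 were higher and 336 lower at an unadjusted p under 0.05, and Pcgf5 had a log2 fold change of -0.62 (edgeR adjusted p 0.458). Pcgf5 kept its direction in all 14 alternatives. The median of the 2-cell genes ranged from 0.72 to 1.19 over the libraries left out. Changes of sign were seen for 6 named genes. Over the libraries left out, Rpp30 ranged from -0.16 (without Homo KO replicate 2) to 0.26, and was also below 0 without Hetero KO replicate 1 (-0.14) or 3 (-0.0046). Hectd2 ranged from -0.54 (without Homo KO replicate 3) to 0.75, Pou5f1 from -1.09 (without Homo KO replicate 3) to 0.51, with -0.23 without Hetero KO replicate 2 and -0.27 with the replicate block, and Nanog from -1.07 to 0.15 (without Homo KO replicate 1), with 0.0017 without Hetero KO replicate 2. Tfap2c ranged from -0.096 (without Homo KO replicate 3) to 0.36, with -0.038 without Hetero KO replicate 1, and Sall4 from -0.035 (without Homo KO replicate 3) to 0.59. For these the cause was not tested. The planned test of Pcgf5 transcript length could not be made, since 1 transcript of constant length was counted. With 3 libraries a group, genes of a few counts per library are limited by depth.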
